A study of Homo sapiens with 4 samples.

Results

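The genes examined were 10 core components of the Notch signalling pathway, taken by gene symbol from a table that holds 23284 symbols on 24934 rows. They comprised 3 receptors (NOTCH1, NOTCH2 and NOTCH3), 3 ligands (JAG1, JAG2 and DLL1), the DNA-binding effector RBPJ, and 3 genes of the HES and HEY family of repressors (HES1, HES7 and HEY1). HES7 was included because the study lists it near a ZSCAN5B binding site; binding data were not analysed here. All 10 were present, and all 10 reached 1 FPKM in at least 1 library, where FPKM is a fragment count corrected for transcript length and library size.

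Notch receptors are single-pass membrane proteins that are activated by ligands of the Jagged and Delta families on a neighbouring cell. Ligand pulling allows ADAM metalloproteases and then the gamma-secretase complex to cut the receptor, and the freed intracellular domain enters the nucleus, where it joins RBPJ and Mastermind coactivators on DNA. HES and HEY genes, which encode basic helix-loop-helix repressors, are classical targets. In embryonic kidney the pathway takes part in patterning the nephron.

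The samples were cultures of HEK-293, an established human cell line from embryonic kidney that carries neuronal traits. Cells were transfected with 10 nM siRNA and RNA was collected 48 h later. The groups were si4 and si5, a pair of siRNAs of different sequence against ZSCAN5A, si1 against ZSCAN5B, and a scrambled control siRNA. Each treatment gave 1 mRNA library, 4 in all, so si4 and si5 repeat the target gene but not the reagent, no library has a replicate, and every comparison shares the same control. The differences below therefore have no replicate check and are given as ratios without p-values, apart from 1 fit across all genes that is given last.

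In the control, ZSCAN5A stood at 2.42 FPKM, and it stood at 0.730 FPKM with si4, 0.713 FPKM with si5 and 2.53 FPKM with si1. It was thus at 30.2% and 29.5% of control with its own siRNAs and at 105% with si1. ZSCAN5B was barely detected, with 6 fragments in si4, 17 in si5, 16 in si1 and 15 in the control. Its ratio to control was 0.366 (interval for counting error 0.116 to 0.999) with si4 and 0.734 (0.345 to 1.58) with si5. Its ratio to control with si1 was 1.05, with an interval for counting error of 0.486 to 2.28. No decrease was thus detected in the library labelled ZSCAN5B knockdown, but a decrease within this interval is not excluded. The paper reports lower ZSCAN5B transcript and protein after this knockdown, by qRT-PCR and Western blot, which were not analysed here. Its qRT-PCR level with si1 lies below the interval given here, so the 2 measures differ beyond counting error. The reason was not tested. By qRT-PCR the paper also has ZSCAN5D transcript below the control with all 3 siRNAs, and ZSCAN5B above it with si4. Of the markers of this line, VIM (269.7 to 359 FPKM), KRT8 (148 to 199), KRT18 (70.4 to 86.2), NEFL (37.0 to 45.2) and NEFM (8.46 to 11.4) were high, while the kidney factor PAX2 was at 0.584 to 1.16 FPKM. The leukocyte gene PTPRC, the hepatocyte gene ALB and the endothelial gene PECAM1 were at most at 0.0335 FPKM, the smooth muscle gene MYH11 at most at 0.209 FPKM, and the fibroblast gene COL1A1 at 1.10 to 1.85 FPKM. PAX2 and COL1A1 were highest in the control, and their part in the Notch values was not tested. The libraries were estimated at 54700000 (control), 55600000 (si1), 59700000 (si4) and 84400000 (si5) fragments. Because RNA came from whole cultures, fewer cells of a type and less RNA per cell cannot be told apart.

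The 3 siRNAs are shown so that their match to the Notch transcripts can be read. Their target sequences on the sense strand, as the study's supplement lists them, carry in capitals the letters paired with the guide's seed, bases 2 to 8.
si4: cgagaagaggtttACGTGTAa
si5: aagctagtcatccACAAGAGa
si1: acgtgtgcaataaATCATTTa
The si4 and si5 targets matched ZSCAN5A transcripts over all 21 bases, and the si1 target matched ZSCAN5B over all 21. The longest run shared with annotated transcripts of the 10 Notch genes was 9 bases for si4, 10 for si5 and 9 for si1. These runs are in the sense direction, and the antisense direction gave at most 10, in RBPJ with si5 and si1. The capital letters of si4 occurred in a transcript of NOTCH1, those of si5 in RBPJ, and those of si1 in NOTCH2, JAG1, HEY1 and RBPJ. No Notch gene held the capital letters of all 3 siRNAs, and NOTCH3, JAG2, DLL1, HES1 and HES7 held none of them. All annotated transcripts of a gene were searched, 51 for RBPJ. The share of all genes that hold these letters was not computed, so the matches are a description only.

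Promoters are shown for the receptors, which were lower together, and for HES1 and HES7, whose promoters are where the pathway acts. Each runs 5′ to 3′ along the gene's strand from 250 bases before to 50 bases after the gene's start in RefSeq on GRCh38.p14, a different build from that of the expression table, with the core RBPJ site TGGGAA (either strand) in capitals.
NOTCH1, chr9:136545999-136546298, minus strand: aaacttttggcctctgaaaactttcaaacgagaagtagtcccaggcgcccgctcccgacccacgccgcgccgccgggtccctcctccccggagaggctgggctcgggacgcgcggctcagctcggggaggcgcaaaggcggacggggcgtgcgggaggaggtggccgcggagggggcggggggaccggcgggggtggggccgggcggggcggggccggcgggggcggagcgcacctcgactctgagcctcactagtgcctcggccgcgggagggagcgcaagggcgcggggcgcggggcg
NOTCH2, chr1:120069613-120069912, minus strand: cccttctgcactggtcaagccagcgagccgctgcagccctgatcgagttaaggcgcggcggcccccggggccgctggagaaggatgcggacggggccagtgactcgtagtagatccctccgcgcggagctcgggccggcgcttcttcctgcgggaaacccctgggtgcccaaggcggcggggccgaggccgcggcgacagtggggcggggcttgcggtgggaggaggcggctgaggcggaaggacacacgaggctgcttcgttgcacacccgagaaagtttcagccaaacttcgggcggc
NOTCH3, chr19:15200946-15201245, minus strand: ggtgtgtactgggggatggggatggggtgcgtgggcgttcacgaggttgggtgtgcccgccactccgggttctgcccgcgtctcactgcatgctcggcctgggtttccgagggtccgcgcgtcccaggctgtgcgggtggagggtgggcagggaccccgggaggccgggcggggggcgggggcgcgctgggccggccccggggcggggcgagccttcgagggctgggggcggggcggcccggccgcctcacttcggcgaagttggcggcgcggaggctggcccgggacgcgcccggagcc
HES1, chr3:194135898-194136197, plus strand: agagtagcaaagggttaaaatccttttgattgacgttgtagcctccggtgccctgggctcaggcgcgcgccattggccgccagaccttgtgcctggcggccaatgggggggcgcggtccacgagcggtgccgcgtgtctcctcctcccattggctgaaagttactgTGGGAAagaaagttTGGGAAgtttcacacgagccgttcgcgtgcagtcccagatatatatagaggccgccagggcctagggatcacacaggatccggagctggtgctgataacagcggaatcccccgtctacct
HES7, chr17:8124057-8124356, minus strand: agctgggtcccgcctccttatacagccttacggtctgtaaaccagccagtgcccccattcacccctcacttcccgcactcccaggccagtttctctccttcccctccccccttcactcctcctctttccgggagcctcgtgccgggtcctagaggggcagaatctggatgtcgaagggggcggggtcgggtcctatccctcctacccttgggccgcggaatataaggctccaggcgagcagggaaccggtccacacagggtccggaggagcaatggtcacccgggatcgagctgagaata
HES1 carried 2 copies of TGGGAA in the same orientation, beginning at -84 and -70 when the first base of the gene is position 0. The other promoters printed had 0. From the reference table, 12 promoters of 8 of the 10 genes were searched, 5 of them alternative starts of RBPJ. No promoter of DLL1 or HEY1 was searched. TGGGAA was in 2 of the 12 promoters, that of HES1 and 1 start of RBPJ, against 24% of all 35116 promoters in the table. The N-box CACNAG, a class of site that HES proteins bind, was in 6 of the 12 against 38% of all promoters, with 4 copies in HES1. The E-box CACGTG was in none of them, against 7.26% of all promoters. The receptor promoters were rich in G and C, at 77.0%, 70.3% and 78.3% for NOTCH1, NOTCH2 and NOTCH3, beside 59% for HES1, 62.7% for HES7 and a median of 58.7% over all promoters. A match of letters is a description and not evidence of binding.

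In the control library the most abundant of the 10 transcripts was HES1 (52.6 FPKM), followed by HEY1 (28.2), RBPJ (19.0), NOTCH2 (12.5), JAG1 (7.72), JAG2 (4.76), NOTCH3 (3.55), DLL1 (3.35), NOTCH1 (1.93) and HES7 (1.36). The first 3 places and the place of JAG2 were the same in every library. In each siRNA library the other genes had exchanged neighbours: JAG1 stood above NOTCH2, DLL1 above NOTCH3 and HES7 above NOTCH1. In si4 the last pair was level, at 1.156 FPKM for HES7 and 1.155 FPKM for NOTCH1. For the 6 genes without recovered fragments, the control level and transcript length correspond to between 1501 (JAG2) and 7811 (NOTCH2) fragments.

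**Figure D1:**
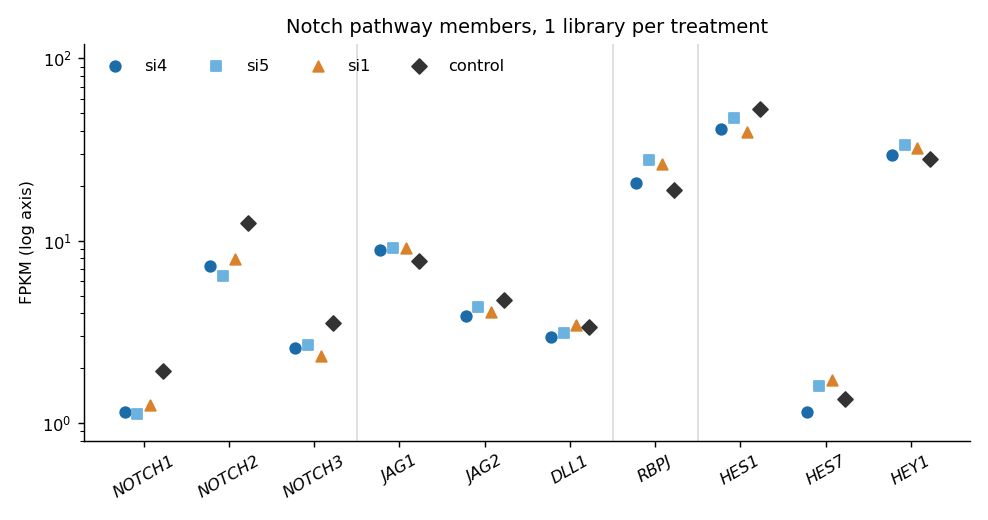
FPKM (log axis) of the 10 Notch genes, with 1 point for each of the 4 libraries and vertical lines between receptors, ligands, RBPJ and the HES and HEY genes. The control point is the highest of the 4 for NOTCH1, NOTCH2, NOTCH3, JAG2 and HES1 and the lowest for JAG1, RBPJ and HEY1.

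All 3 receptors were lower in every siRNA library than in the control. A gene was counted as past the limit when its ratio to the control exceeded 1.5-fold in either direction, with at least 1 FPKM in a library of the comparison. By this rule NOTCH1 and NOTCH2 were lower in the mean of si4 and si5, and all 3 receptors were lower in the library labelled ZSCAN5B knockdown. No Notch gene was higher by this rule in either comparison. The 2 lower of 10 in the mean of si4 and si5 stand beside 3.1% of the 12935 genes tested that were lower and 0.673% that were higher. The 3 lower of 10 with si1 stand beside 3.16% of 12866 genes lower and 0.832% higher. The control was the highest of the 4 libraries for 5 of the 10 genes and the lowest for 3, beside 36.1% and 30% of the 13020 genes at 1 FPKM in a library. The median log2 ratio of the 10 genes was -0.18 for the mean of si4 and si5, with -0.02 over all genes tested, and -0.08 with si1, with -0.01 over all genes tested.

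NOTCH1 (chromosome 9, 139388896 to 139440238 on hg19) encodes the receptor best known from T cell leukaemia. Its level was 1.15 FPKM (si4), 1.12 (si5), 1.26 (si1) and 1.93 (control). The 3 siRNA libraries lay close together and below the control. These values correspond to 671, 921, 680 and 1025 fragments, recovered as whole numbers from the proportions between the libraries. The ratio to control was 0.60 with si4 (95% interval 0.543 to 0.662), 0.582 with si5 (0.532 to 0.637) and 0.653 with si1 (0.592 to 0.720), where the exact intervals cover counting error only. Between si5 and si4 the ratio was 0.970 (0.877 to 1.07), so the pair of ZSCAN5A siRNAs did not differ beyond counting error.

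NOTCH2 (chromosome 1, 120454176 to 120612317) is the receptor with the leading role in nephron formation. It was the most abundant receptor, at 7.26 FPKM (si4), 6.38 (si5), 7.96 (si1) and 12.5 (control). The control was the highest of the 4 libraries, as for 36.1% of genes at 1 FPKM in a library. The siRNA libraries were at 58.0% (si4), 51.0% (si5) and 63.7% (si1) of its level. The log2 ratio of the mean of si4 and si5 was -0.87, and 0.642% of the genes tested had a lower one. NOTCH2 shares near-identical sequence with the NOTCH2NL genes, and how the authors' counting split such reads is uncertain. The row named NOTCH2NL (chromosome 1, 145209111 to 145285912) stood at 2.97, 3.13 and 3.29 FPKM with si4, si5 and si1 and at 3.04 in the control, so it was at 97.6%, 103% and 108% of control where NOTCH2 was lower.

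NOTCH3 (chromosome 19, 15270444 to 15311792), a receptor prominent in vascular smooth muscle, was at 2.58 FPKM (si4), 2.68 (si5), 2.35 (si1) and 3.55 (control). From 1299, 1907, 1098 and 1633 fragments the ratios to control were 0.729 (0.677 to 0.784) with si4, 0.756 (0.707 to 0.808) with si5 and 0.662 (0.612 to 0.715) with si1. NOTCH3 was therefore inside the 1.5-fold limit with both ZSCAN5A siRNAs and just past it with si1, at a log2 ratio of -0.60. The remaining receptor gene, NOTCH4, was at 0.246 to 0.333 FPKM, under the expression limit.

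**Figure D2:**
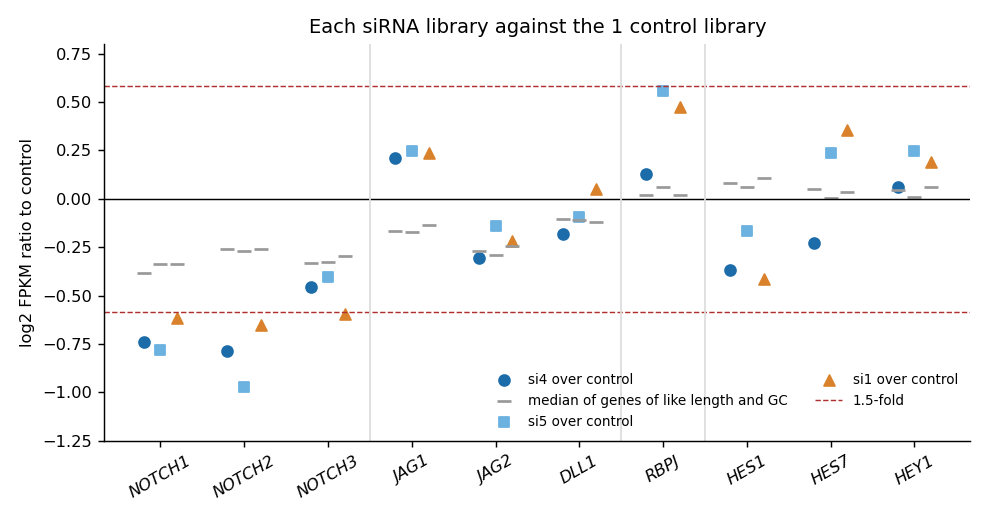
Log2 ratio of FPKM in each siRNA library to the control for the 10 Notch genes. Dashed lines mark 1.5-fold, and grey bars give the median ratio of the 200 genes nearest in transcript length and GC content. The receptors lie below 0 with all 3 siRNAs, and RBPJ, JAG1 and HEY1 above it.

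Transcript length moved with these ratios. Over all genes tested the median log2 ratio of the mean of si4 and si5 went from 0.19 for canonical transcripts under 1000 bases to -0.13 for those of 10000 to 15000 bases, and with si1 from 0.19 to -0.16. The share of genes past the limit and lower with si4 and si5 was 1.08% in the first class and 9.49% in the second. The receptors have long transcripts, of 9568 bases for NOTCH1, 11425 for NOTCH2 and 8680 for NOTCH3, against 1575 to 5940 for the other 7 genes. The 200 genes most like NOTCH1 in length and GC content had a median log2 ratio of -0.34 with si4 and si5, those most like NOTCH2 -0.26 and those most like NOTCH3 -0.32. With this median subtracted the log2 ratios were -0.42 for NOTCH1, -0.61 for NOTCH2 and -0.11 for NOTCH3 with si4 and si5, and -0.28, -0.39 and -0.30 with si1. NOTCH2 in the mean of si4 and si5 was then past the 1.5-fold limit, and no other receptor was in either comparison. This rested on si5, since NOTCH2 was at -0.70 with si5 and at -0.53, inside the limit, with si4. The part of length or GC content in the receptor values was not tested.

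**Figure D3:**
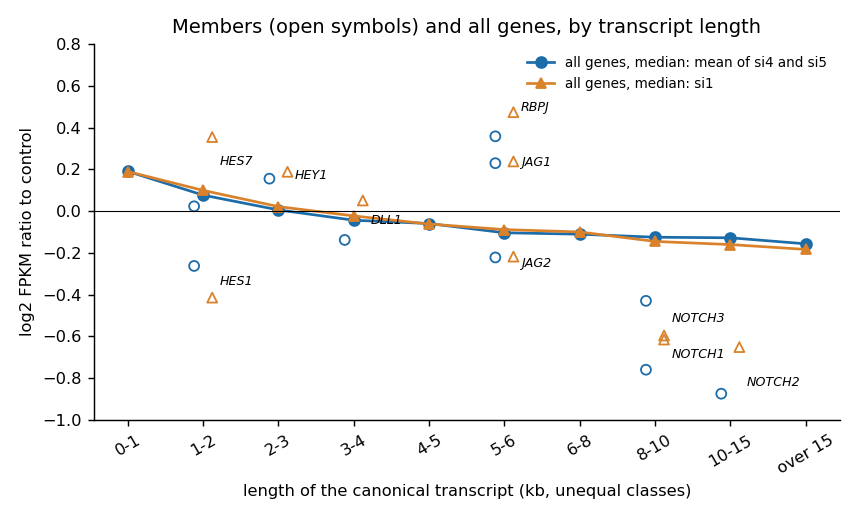
Log2 ratio to control against the length of the canonical transcript in classes of unequal width. Filled symbols and lines are medians over all genes tested, open circles the mean of si4 and si5 and open triangles si1 for each Notch gene. The median falls from 0.19 in the shortest class, and the receptors lie in the 8 to 10 and 10 to 15 kb classes, below it.

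The ligands were nearer to the control than the receptors. JAG1 (chromosome 20, 10618332 to 10654694), the ligand mutated in Alagille syndrome, was at 8.95 FPKM (si4), 9.16 (si5), 9.10 (si1) and 7.72 (control). All 3 siRNA libraries were above the control, at 116%, 119% and 118% of it, which is inside the 1.5-fold limit. Genes alike in length and GC content had a median log2 ratio of -0.18 with si4 and si5, beside 0.23 for JAG1. JAG2 (chromosome 14, 105608076 to 105635161), the second Jagged ligand, was at 3.84, 4.31, 4.09 and 4.76 FPKM in si4, si5, si1 and control, with the control highest. Its log2 ratio was -0.22 in both comparisons, close to the -0.28 and -0.25 of genes alike in length and GC content. DLL1 (chromosome 6, 170591294 to 170599697), a Delta ligand that acts in somite formation, was at 2.95, 3.13, 3.47 and 3.35 FPKM in the same order. From 585, 879, 640 and 608 fragments its ratios to control were 0.881 (0.785 to 0.989), 0.936 (0.843 to 1.04) and 1.04 (0.926 to 1.16), so that si4 alone lay below the control beyond counting error.

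RBPJ (chromosome 4, 26321332 to 26436752), the transcription factor through which all Notch receptors act, was at 20.7 FPKM (si4), 27.9 (si5), 26.3 (si1) and 19.0 (control). The control was the lowest library, and si4 lay nearer to it than to si5. RBPJ reached 109% (si4), 147% (si5) and 139% (si1) of the control level, all inside the limit. Of the genes tested, 99.3% had a lower ratio than RBPJ with si5, 98.4% with si1 and 70.9% with si4. The log2 difference between si5 and si4 was 0.43, larger than that of 94.1% of genes, whose median difference in either direction was 0.11. With si4 and si5 together the log2 ratio was 0.36, opposite in direction to the receptors.

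Of the targets, HES1 (chromosome 3, 193853931 to 193856401), a repressor that maintains progenitor cells, was at 40.8 FPKM (si4), 47.0 (si5), 39.5 (si1) and 52.6 (control). All 3 siRNA libraries were below the control, at 77.5%, 89.2% and 75% of it, and none passed 1.5-fold. HES1 has a short transcript, and genes alike in length and GC content had median log2 ratios of 0.06 with si4 and si5 and 0.11 with si1, beside -0.26 and -0.41 for HES1. HEY1, a related repressor of the endothelium and heart, was at 29.4, 33.4, 32.1 and 28.2 FPKM in si4, si5, si1 and control. The control was the lowest, with the siRNA libraries at 104%, 119% and 114% of it. HES1 and HEY1 thus lay on opposite sides of the control in every siRNA library.

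HES7 (chromosome 17, 8023908 to 8027410), a repressor of the somite clock, had the lowest control level of the 10 genes. It was at 1.16 FPKM (si4), 1.60 (si5), 1.73 (si1) and 1.36 (control), so the control lay between the ZSCAN5A siRNAs. The values rest on 109, 213, 152 and 117 fragments. The ratio to control was 0.853 (0.651 to 1.12) with si4, 1.18 (0.936 to 1.49) with si5 and 1.28 (0.998 to 1.64) with si1, so that no difference from the control was detectable at this depth. Between si5 and si4 the ratio was 1.38 (1.09 to 1.76), beyond counting error, and 95.4% of genes had a smaller difference between these libraries. The mean of si4 and si5, 1.38 FPKM, therefore joins values on either side of the control. The study lists HES7 among genes up-regulated after ZSCAN5B knockdown, for which it used a 1.5-fold rule. With si1 the ratio of 1.28 here was inside that limit.

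Within 100 kb of HES7 the table lists 5 other genes at 1 FPKM or more. PER1, a repressor of the circadian clock 16.4 kb away, was at 1.26 FPKM (si4), 1.28 (si5), 1.32 (si1) and 2.105 (control), and was the only one past the limit, in both comparisons. Its fragments numbered 364, 520, 354 and 555, and its ratio to control was 0.601 (0.525 to 0.687) with si4, 0.607 (0.537 to 0.685) with si5 and 0.628 (0.548 to 0.718) with si1. With the median of genes alike in length and GC content subtracted its log2 ratios were -0.54 with si4 and si5 and -0.50 with si1, inside the limit. VAMP2, a synaptic vesicle protein 35.1 kb away, had log2 ratios of -0.42 and -0.39 with the mean of si4 and si5 and with si1. The log2 ratios were 0.10 and 0.05 for TMEM107, a ciliary protein, 0.36 and 0.11 for C17orf59, and -0.10 and -0.12 for the mitotic kinase AURKB. The study also lists C17orf59 as up-regulated after ZSCAN5B knockdown, and with si1 it was inside the limit here. Neighbours of HES7 thus lay on both sides of the control, and HES7 was the only one of the 6 whose si4 and si5 values lay on opposite sides of it.

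**Figure D4:**
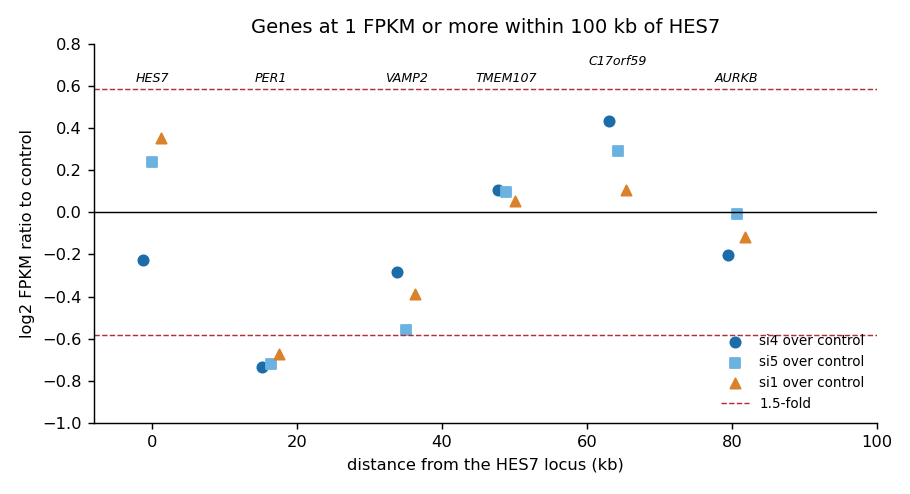
Log2 ratio to control of HES7 and the 5 genes within 100 kb that reached 1 FPKM, against the distance between their loci in kb, with 1 point per siRNA library and dashed lines at 1.5-fold. PER1 lies below the lower line with all 3 siRNAs, and the HES7 points lie on both sides of 0.

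The rest of the pathway was represented by 63 genes, of which 53 reached 1 FPKM. In the mean of si4 and si5, 5 of the 53 were past the limit and lower and 0 were higher, beside 3.1% and 0.673% of all genes tested. With si1, 3 were lower and 0 were higher, beside 3.16% and 0.832%. The median log2 ratio was -0.13 with si4 and si5 and -0.10 with si1, beside -0.02 and -0.01 over all genes tested. The control was the highest of the 4 libraries for 34 of these genes and the lowest for 6, beside 36.1% and 30% of all genes.

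Among 8 coactivators, 2 were lower in both comparisons. The acetyltransferase EP300 was at 7.22, 6.86, 6.84 and 11 FPKM in si4, si5, si1 and control, and its relative CREBBP at 4.28, 4.16, 4.30 and 6.54 FPKM. Both bind the Notch complex through Mastermind and open chromatin. The most abundant coactivator, SNW1, stood above the control, with log2 ratios of 0.18 and 0.22.

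Among 13 corepressors that hold RBPJ targets silent, SPEN, a scaffold that binds RBPJ directly, was at 9.95, 10.8, 10.8 and 16.1 FPKM in si4, si5, si1 and control and was past the limit with the mean of si4 and si5, with a log2 ratio of -0.63 beside -0.58 with si1. The most abundant gene of this role, the histone deacetylase HDAC1, had log2 ratios of 0.01 and 0.12.

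The endocytosis and ubiquitin group had 12 genes tested. AAK1, a kinase of clathrin adaptors, was lower in both comparisons, at 0.968, 0.744, 0.947 and 1.52 FPKM. NEURL1B, a ubiquitin ligase of the Neuralized family, was lower in the mean of si4 and si5. It was at 0.451 FPKM (si4), 1.11 (si5), 0.90 (si1) and 1.21 (control). Si4 decided this call, since the ratio to control was 0.373 (0.312 to 0.445) with si4 and 0.919 (0.812 to 1.04) with si5. MIB1, the ligase that drives ligand endocytosis and the most abundant of the group, had log2 ratios of 0.06 and -0.17.

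No gene among 9 proteases, 3 glycosylation genes, 3 further ligands and 5 further Notch targets passed the limit in either comparison. The most abundant of each were PSENEN, a subunit of gamma-secretase, with log2 ratios of 0.35 and 0.21, the fucosyltransferase POFUT1 with -0.04 and -0.05, the ligand DLL3 with 0.09 and 0.18, and HES4 with -0.08 and -0.34. The targets thus lay on both sides of the control. HES1 and HES4 were below it in both comparisons. HEY1 (0.16 and 0.19) and HES6 (0.09 and 0.06, at 18.7 FPKM in the control) were above it. Of the 5 further targets, 1 (HES6) was above the control and 4 were below it in each comparison. NRARP (-0.16 and -0.02, at 19.1 FPKM in the control), HEY2 (-0.15 and -0.19) and HEYL (-0.38 and -0.33) were below it in both. The pathway genes past the limit also have long transcripts, from 6427 bases for NEURL1B to 21157 for AAK1. With the median of genes alike in length and GC content subtracted, 1 pathway gene, AAK1 at a log2 ratio of -0.73, passed the limit when si4 and si5 were averaged and 0 with si1. AAK1 was then at -0.95 with si5 and at -0.55, inside the limit, with si4.

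**Figure D5:**
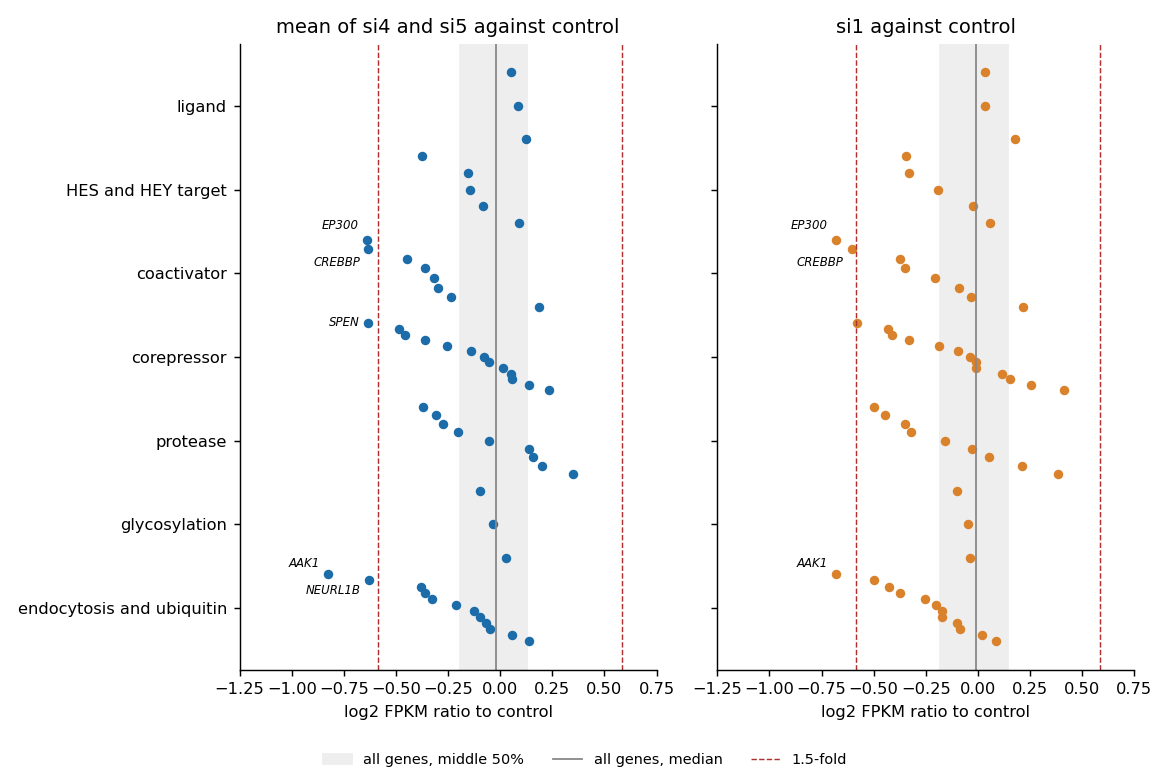
Log2 ratio to control of the Notch pathway genes outside the 10, by role, for the mean of si4 and si5 and for si1. Each point is 1 gene, the grey band and line give the middle 50% and the median of all genes tested, and dashed lines mark 1.5-fold. The named genes past the lower line are EP300, CREBBP and AAK1 in both panels and SPEN and NEURL1B with si4 and si5, and none passes the upper line.

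limma on log2(FPKM + 1), fitted across 13020 genes with si4 and si5 as the only repeated group, called 10 genes (0.0768%) in each comparison at an adjusted p under 0.05 and none of the 10 Notch genes. At an unadjusted p under 0.05 it counted 3 of the 10 in each comparison, beside 12.7% of all genes for the mean of si4 and si5 and 10.6% for si1. The lowest adjusted p among them was 0.384 for the mean of si4 and si5 and 0.467 for si1.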

How the data were processed

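The labels describe mRNA libraries of HEK-293 cells and credit CASAVA 1.8.2, Trimmomatic 0.30, TopHat2 2.1.0 and Cufflinks 2.2.1 on hg19; labels and methods name different library kits. The authors deposited 1 table of FPKM values (gene rows scaled by length and mapped fragments), used as deposited, with 0 other columns of per-sample values. Where a symbol stood on several rows, the row with the highest mean was kept. The mean of si4 and si5, and si1, were each divided by the control without a pseudocount. Genes at 0 on 1 side were left out, and genes with a ratio over 1.5-fold that reached 1 FPKM in a library were counted. The Notch genes, pathway list, markers and motifs were chosen with earlier results of these data known. Named outside the 10 were pathway genes past the limit and the most abundant gene of each role. Also named were neighbours of HES7 at 1 FPKM within 100 kb, NOTCH2NL and the ZSCAN5 pair. HES6, HEY2, HEYL and NRARP were named after their values were seen.

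Read counts were not used here. Whole fragments were recovered where the 4 FPKM values, scaled by relative depth, were whole within a relative 5e-06 with at most 2000 control fragments, and were kept where they lay within a factor of 2 of the estimate from transcript length, a rule set after seeing the data. This gave fragments for NOTCH1, NOTCH3, DLL1 and HES7. The smallest such numbers were taken, so true numbers could be multiples of them. Intervals of ratios are Clopper-Pearson at 95%, for counting error alone. Transcript length and GC content came from the GENCODE annotation on GRCh37 and were matched for 86.4% of genes tested; the 200 nearest genes gave the median that was subtracted. Promoters came from RefSeq on GRCh38.p14 and siRNA targets from the study's supplement. limma 3.58.1 in R 4.3.3 was run as an alternative, in which the lone si1 and control libraries are assumed to vary like si4 and si5. The fold rule, the recovery of depth and fragments, and limma were tested on simulated data, and the motif search on a made-up sequence. The length and GC step and the siRNA match search had no such test. Python 3.11.15, NumPy 2.4.6, pandas 2.3.3, SciPy 1.17.1 and matplotlib 3.10.9 were used. Alternatives covered the pseudocount, expression and fold limits, scaling, length and GC content, repeated symbols, si4 and si5 singly, and limma. ChIP-seq and qRT-PCR data were not analysed here, and 1 gene of the pathway list is not reported here and was left out of its counts and medians.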

Additional observations from a re-analysis of the deposited data

Results flagged for a closer look

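DLL1 stood out because both ZSCAN5A siRNAs placed it below the control, at 88.1% of control with si4 and 93.6% with si5, while the library labelled ZSCAN5B knockdown placed it above, at 104% of control. The difference between the knockdowns was not tested, and the interval of counting error for si5 and for si1 includes the control level.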

How the results depend on the processing

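With 1 library per siRNA and 1 control, no setting adds a replicate, and the spread of a control value is unknown. Counts under other settings are given for the 10 Notch genes with the mean of si4 and si5 (2 as reported) and with si1 (3 as reported), then for the other pathway genes (5 and 3). A pseudocount of 1 FPKM left 1 and 1, then 1 and 1, and a pseudocount of 0.1 FPKM left 1 of the Notch genes with si1. With 1 FPKM, 81 of all genes were higher and 167 lower with si4 and si5, and 82 and 178 with si1. With 0.1 FPKM, 124 of all genes were higher and 385 lower with si1. At least 5 FPKM left 5 of the 10 Notch genes and 42 of the pathway genes to test, without NOTCH1 and NOTCH3. Past the limit were then 1 and 1 of the Notch genes and 3 of the pathway genes with si4 and si5. Of all genes, 43 were higher and 162 lower with si4 and si5, and 54 and 195 with si1. A limit of 0.32 on the log2 scale gave 4 (1 higher, 3 lower) and 6 (2 higher, 4 lower) of the Notch genes. It gave 16 (1 higher, 15 lower) and 19 (2 higher, 17 lower) of the pathway genes. Of the 12935 genes tested with si4 and si5, 663 were then higher and 1719 lower. Of the 12866 tested with si1, 862 were higher and 1646 lower. A limit of 2-fold gave 0 in each. Of all genes, 22 were then higher and 49 lower with si4 and si5, and 25 and 42 with si1. With the median of genes alike in length and GC content removed the counts were 1 and 0, then 1 and 0. Of the 11172 genes with a length, 63 were then higher and 179 lower with si4 and si5. With si1, 60 of 11133 were higher and 224 lower. limma called 0 and 0 of the Notch genes.

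The median log2 ratio of the Notch genes after the length and GC step was -0.025 with si4 and si5 and 0.079 with si1, the latter of opposite sign to the -0.08 reported. That of the pathway genes was -0.069 and -0.065 after the length and GC step, and with si4 and si5 -0.088 with no expression limit, -0.078 at 5 FPKM, -0.10 with a pseudocount of 1 FPKM and -0.10 under upper-quartile scaling. With si4 or si5 alone the count of Notch genes was 2 and 2, that of pathway genes 3 (si5) to 7 (si4), and the medians ran from -0.27 to -0.12 and from -0.12 to -0.098. JAG2 turned to 0.059 and 0.028 after the length and GC step. HES7 with si4 and si5 turned from 0.023 to -0.011 after that step, and with 1 siRNA alone ran from -0.23 (si4) to 0.24 (si5). Under upper-quartile scaling NOTCH3 with si1 was at -0.58, inside the limit. The causes were not tested. No paired analysis was possible because each siRNA and the control had 1 library.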
